A study of Homo sapiens with 4 samples.

Results

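The genes described here had many sequence tags on the strand opposite to their transcript, with no other transcript on that strand in the deposited models. They were selected on those tags: at least 50 antisense tags in both libraries of a cell line, more antisense tags over that line than 0.5 of the sense tags, and no transcript entry overlapping the gene's span on the opposite strand. Of 24315 genes, 20486 had no such opposite entry, and 443 of them met the rule, at 432 separate loci. The rule was met in both lines by 212 genes, in the libraries labelled LNCaP alone by 98 and in the pair labelled C4-2 alone by 133. Because sense and antisense tags chose the genes, their size in the line where the rule was met is given as a description, without a test.

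Total RNA depleted of ribosomal RNA was sequenced from 2 human prostate cancer lines, with 2 libraries each. LNCaP is an androgen-dependent line that the labels call primary cancer, and C4-2 is a subline derived from it that the labels call castration-resistant. Both were grown in RPMI with charcoal-stripped serum, and the labels name no treatment. Samples were grouped by their titles, but their deposited data are stored under the name of the other line. All directions below therefore hold for the libraries as labelled and would turn round if the stored names were right. The labels do not say if each library had its own culture. The p-values below rest on the spread among these 4 libraries, part or all of which may be technical.

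Both strands of a gene can be transcribed. A natural antisense transcript may be a long non-coding RNA with its own promoter, the tail of a neighbouring gene that runs past its end into a convergent partner, or the product of a gene nested in an intron or exon. Some antisense RNAs act on the gene they overlap, for example by changing its chromatin or by pairing with its RNA, and others have no known effect. In count tables an antisense tag can also come from a similar sequence elsewhere, such as a processed pseudogene, which is a reverse-transcribed copy of an mRNA inserted into the genome, or a dispersed repeat such as an Alu or L1 element.

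Several features of the exon sequences recur in the results below. The first set is shown because long non-coding RNAs with far more antisense than sense tags held a reversed copy of a highly expressed mRNA. LINC00987 and TAPT1-AS1 are long non-coding RNAs, PTMA encodes the nuclear protein prothymosin alpha, and RPS21 encodes a protein of the small ribosomal subunit. Each pair gives 120 bases of hg19, 5′ to 3′. The first line is the minus strand of the non-coding gene (chr12:9392808-9392927 and chr4:16258020-16258139), and the second is the coding sequence of the mRNA on the plus strand, spliced from exons within chr2:232573417-232576602 and chr20:60962434-60962943. Capitals mark bases that are the same in both, 117 of 120 in each pair.
LINC00987: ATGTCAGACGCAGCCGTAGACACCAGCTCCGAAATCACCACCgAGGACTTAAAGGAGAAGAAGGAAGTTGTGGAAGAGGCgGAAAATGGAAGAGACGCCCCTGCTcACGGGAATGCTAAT
PTMA: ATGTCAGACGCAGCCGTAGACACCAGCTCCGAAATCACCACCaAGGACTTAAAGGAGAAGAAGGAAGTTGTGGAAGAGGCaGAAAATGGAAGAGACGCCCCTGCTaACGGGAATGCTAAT
TAPT1-AS1: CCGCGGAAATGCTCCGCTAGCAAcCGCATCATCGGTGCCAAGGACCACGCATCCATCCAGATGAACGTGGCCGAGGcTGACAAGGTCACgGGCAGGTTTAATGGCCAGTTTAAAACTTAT
RPS21: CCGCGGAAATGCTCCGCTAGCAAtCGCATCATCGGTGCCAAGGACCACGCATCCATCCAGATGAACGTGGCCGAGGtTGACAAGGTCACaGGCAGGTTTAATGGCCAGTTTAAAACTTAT

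The second set is shown because CDR1 is the gene whose opposite strand is best known: its antisense RNA, CDR1-AS, is a circular RNA that binds the microRNA miR-7. The deposited entry has no symbol and is CDR1 in GENCODE, where the long non-coding gene LINC00632 covers all 1299 of its bases on the other strand. The mature miR-7-5p of RefSeq follows with its seed (bases 2 to 8) in capitals, then 250 bases of the plus strand at CDR1 (hg19 chrX:139866325-139866574) with each match to the seed, GTCTTCC, in capitals.
hsa-miR-7-5p: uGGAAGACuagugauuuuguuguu
CDR1 opposite strand: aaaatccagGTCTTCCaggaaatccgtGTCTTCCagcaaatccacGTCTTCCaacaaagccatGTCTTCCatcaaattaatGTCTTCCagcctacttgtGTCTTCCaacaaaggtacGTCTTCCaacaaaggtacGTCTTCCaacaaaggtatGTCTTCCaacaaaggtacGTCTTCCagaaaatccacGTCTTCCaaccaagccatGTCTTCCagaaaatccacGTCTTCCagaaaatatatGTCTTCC

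The shown stretch held 14 such matches. Over the whole entry there were 60 on the opposite strand, or 46.2 per kb, and 0 on the strand of CDR1. Of 16811 other gene models searched the same way, 26.7% held the motif at least once on their opposite strand, and the highest number in any of them was 19. A match of letters is a description and no measure of binding.

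The third set is shown because 2 protocadherin genes with nearly the same antisense tag counts share the start of their first exons. PCDHGB4 and PCDHGB5 belong to the gamma protocadherin cluster, which encodes cell-surface adhesion proteins with variable first exons spliced to shared last exons. In hg19 their first exons begin with 450 identical bases, against at most 59 identical bases in a row between either of them and any other gamma protocadherin gene. The first 200 are given for the plus strand at chr5:140767452-140767651, and they read the same at chr5:140777695-140777894, so that all bases are in capitals.
PCDHGB4 and PCDHGB5: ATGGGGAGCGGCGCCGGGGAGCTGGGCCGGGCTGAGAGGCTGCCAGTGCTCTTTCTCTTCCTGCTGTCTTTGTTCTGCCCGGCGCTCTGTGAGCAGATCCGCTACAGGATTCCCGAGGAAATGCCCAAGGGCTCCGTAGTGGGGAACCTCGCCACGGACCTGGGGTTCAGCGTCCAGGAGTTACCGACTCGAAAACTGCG

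The last sequence is shown for its base composition. BHLHA9, a single-exon gene for a transcription factor of limb development, had equal tags on both strands in the libraries labelled C4-2 alone. Its exon was 78.7% G and C and held 100 CG pairs in 708 bases, or 141 per kb, against a median of 24.1 per kb over the genes that met the rule. The line gives the 120 bases richest in CG pairs, plus strand of hg19 chr17:1173968-1174087, with the 22 CG pairs in capitals.
BHLHA9: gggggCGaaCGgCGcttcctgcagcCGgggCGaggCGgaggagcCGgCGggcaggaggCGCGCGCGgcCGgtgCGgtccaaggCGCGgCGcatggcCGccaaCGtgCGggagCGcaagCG

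The depth and strand specificity of the libraries bear on all of these genes. Over genes with a symbol, each library held 58908268 to 163153424 sense tags, and antisense tags made up 1.87% to 1.99% in the pair labelled LNCaP and 1.28% to 1.29% in the pair labelled C4-2. Among 15 highly expressed genes listed to check the strand, the median share of antisense tags was 0.0800% to 0.153%. KRT8 stood apart from the other 14 with 17.2% to 25.2%, and RPLP0 reached 9.87% in LNCaP replicate 2 alone. The summed luminal prostate markers lay at 2796 to 3460 CPM (sense tags per 1000000 effective tags), and 3 basal markers together at 0 to 0.206. Endothelial markers summed to 3.43 to 4.49 CPM, fibroblast markers to 5.74 to 9.57 and immune markers to 0.905 to 1.83. CD3E was at 0 in all 4 libraries, and most of the immune sum was LYZ, which met the rule. None of the 10 genes listed for a known antisense partner met the rule, and 7 of them have an opposite entry in the deposited models. HOXA11 came closest, with 50 and 69 antisense tags beside 228 and 236 sense tags in the libraries labelled LNCaP.

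The antisense tags of the 443 genes were concentrated in a few. Their median lay between 75 and 115 tags in the 4 libraries, and NRSN1 alone held 52.8% and 43.9% of all their antisense tags in the pair labelled LNCaP and 34.4% and 32.3% in the pair labelled C4-2. In a line where the rule was met, antisense tags outnumbered sense tags at 314 genes, and at 30 there was no sense tag at all. For a gene that met the rule in both lines, the larger of its antisense-to-sense ratios is counted here. The same holds for the ratios given below by opposite pseudogene, by reversed copies and near equal strands. The ratio of antisense to sense lay between 0.5 and 2 for 226 genes and above 10 for 111. The plot of both strands shows these as a broad band near equal strands and a set far above it.

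**Figure D1:**
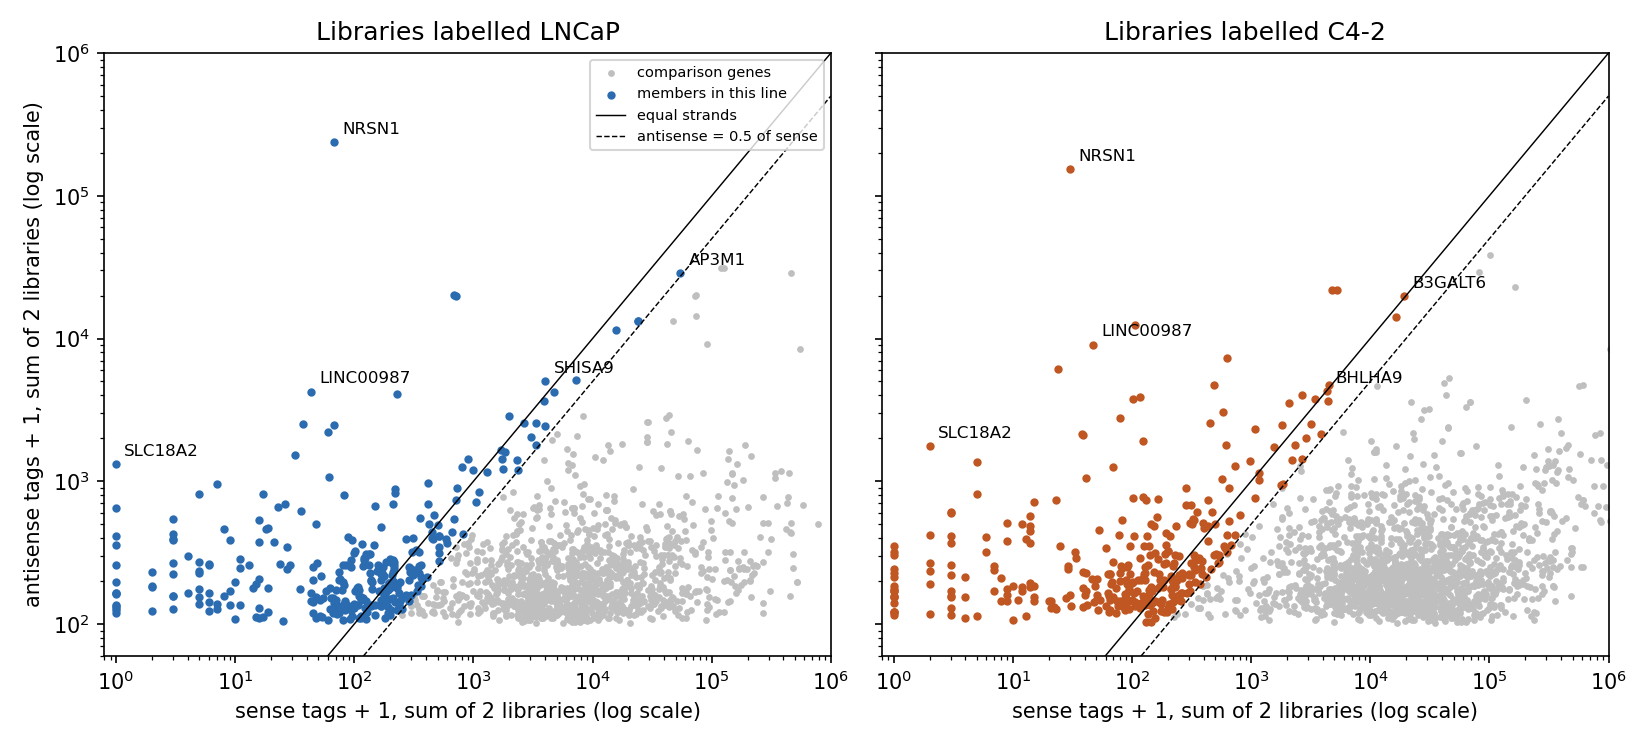
Sense tags (x axis) against antisense tags (y axis) in each line, each as the sum of its 2 libraries plus 1 on log axes, for genes that met the rule in that line (coloured) and for genes with at least 50 antisense tags in both libraries but too low a ratio (grey). NRSN1 lies above all others in both panels, and the dashed line is the 0.5 ratio used by the rule.

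NRSN1 encodes neurensin, a small membrane protein of nerve cell vesicles. It had 106854 and 131521 antisense tags in the pair labelled LNCaP and 88696 and 65677 in the pair labelled C4-2, beside 13 to 38 sense tags. The antisense level was 1791 ± 57.5 CPM (SD, n = 2) against 563 ± 2.11, so that both LNCaP libraries lay above both C4-2 libraries. On the scale set by sense tags the log2 fold change of C4-2 over LNCaP was -1.67 ± 0.078 (SE, edgeR adjusted p = 0.0017). No gene lies opposite NRSN1 within 5 kb in GENCODE. Its last exon matched RN7SL2 in opposite orientation over 95 bases at 91.6% identity. RN7SL2 is one of the genes of the 7SL RNA of the signal recognition particle. This match scored highest of 25 reversed copies in transcripts of other genes, 6 of which carry a 7SL name. A reversed 7SL match was present in 14 of the 411 genes that met the rule and had an exon model. It was present in 48 of the 1900 comparison genes with an exon model, which are described below. Where in the exon the tags lie cannot be read from totals per entry.

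PCDHGB4 had 8700 and 11259 antisense tags in the pair labelled LNCaP and 16322 and 5485 in the pair labelled C4-2. PCDHGB5 had 8686, 11553, 16364 and 5468, the same within a few percent in each library. The 21 other gamma protocadherin entries had 0 to 22 antisense tags, although 20 of them share the last exons. A tag within the 450 shared bases cannot be assigned to one of the genes, and where in the exon the tags lie was not tested. Sense tags of PCDHGB4 numbered 363, 352, 2825 and 1909. The C4-2 replicates differed 2.19-fold in antisense CPM, and the antisense change between lines did not pass the test (adjusted p = 0.0839 for PCDHGB4). Without C4-2 replicate 1, the higher of the pair, it was called lower for both genes, at -1.67 for PCDHGB4 (adjusted p = 0.0101) and -1.69 for PCDHGB5 (adjusted p = 0.0102).

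**Figure D2:**
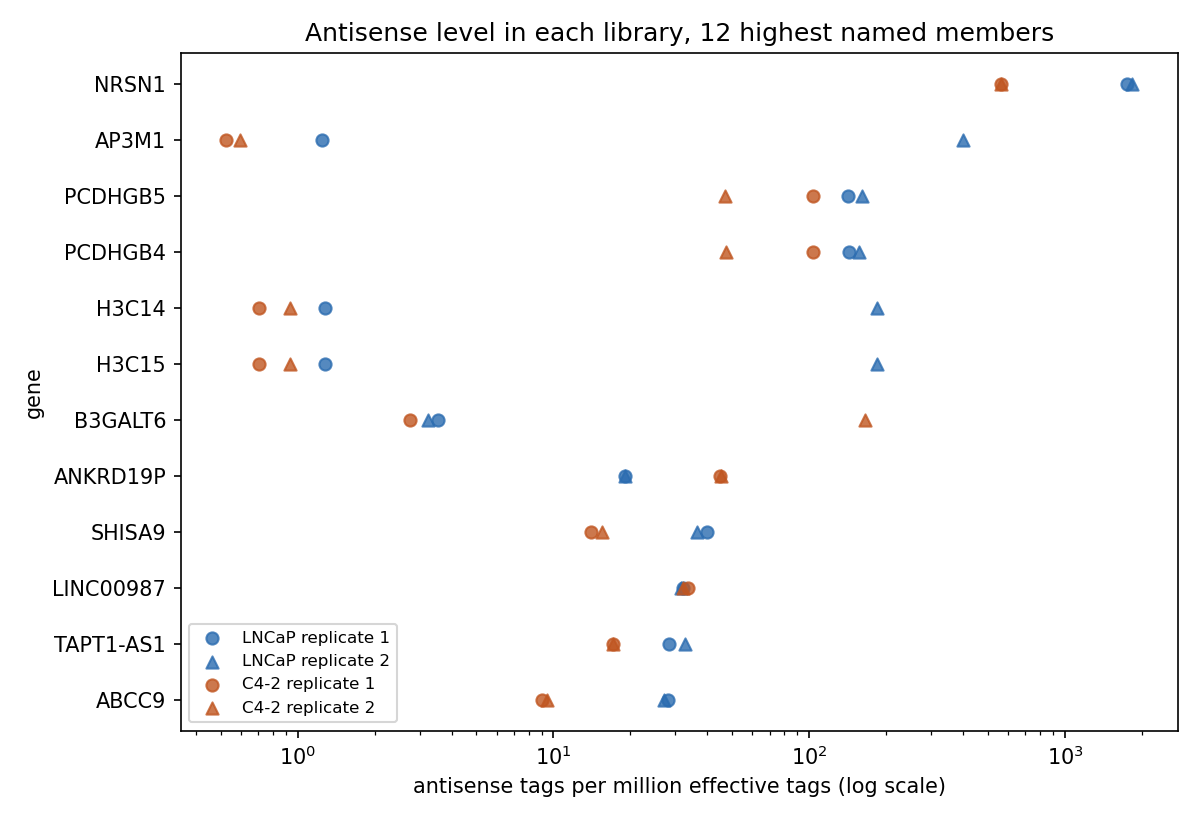
Antisense CPM (x axis, log scale) in each of the 4 libraries for the 12 named genes with the highest antisense level, with circles for replicate 1 and triangles for replicate 2. NRSN1 lies near 1791 CPM in both LNCaP libraries, while AP3M1, H3C14 and H3C15 stand apart in LNCaP replicate 2 alone and B3GALT6 in C4-2 replicate 2 alone.

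A pseudogene on the opposite strand of an exon was listed for some of the genes. For 11 of the 411 genes with an exon model, the opposite GENCODE gene with the most exon overlap was a pseudogene. The same held for 25 of the 1900 comparison genes with an exon model. The 11 genes that met the rule had a median antisense level of 7.25 CPM and a median ratio to sense of 18.0. The median level over all 443, which include them, was 1.29 CPM, and both measures were used by the rule, so no test is given. LINC00987, over the pseudogenes A2MP1 and PTMAP4, had 1965, 2274, 5285 and 3749 antisense tags (LNCaP replicates 1 and 2, then C4-2 replicates 1 and 2, the order used below) and 18 to 25 sense tags. Its antisense level lay between 31.7 and 33.4 CPM in all 4 libraries, and the change did not pass the test (log2 fold change 0.04 ± 0.117, adjusted p = 0.802). It was called higher with factors from antisense tags (0.63, adjusted p = 0.025), with library totals from RPKM (adjusted p = 0.0123) and with DESeq2 (0.61, adjusted p = 2.94e-12). PTMA itself had 65137, 73353, 170939 and 127064 sense tags, a log2 fold change of 0.06.

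TAPT1-AS1, over the pseudogene RPS21P4, had 1723, 2350, 2710 and 1990 antisense tags and 89 to 275 sense tags. Both C4-2 libraries were below both LNCaP libraries in CPM, with a log2 fold change of -0.83 ± 0.135 (adjusted p = 0.0106). This change was -0.24 with factors from antisense tags, -0.26 with DESeq2 and 0.12 with library totals from RPKM. It was called in none of these (adjusted p = 0.274, 0.0677 and 0.685). RPS21 changed by -0.76 on its sense strand. ANKRD19P, an ankyrin-repeat pseudogene over EEF1DP2, had 1164, 1373, 7107 and 5282 antisense tags and 17 to 64 sense tags, and its log2 fold change was 1.24 ± 0.117 (adjusted p = 0.00318). LINC01623, over RPL13P, rose by 0.71 ± 0.131 (adjusted p = 0.0145), beside 1.22 for RPL13 sense tags. TPT1-AS1, over RCN1P2, rose by 0.50 ± 0.117 (adjusted p = 0.0271), beside 0.45 for RCN1. The calls of TAPT1-AS1, LINC01623 and TPT1-AS1 were lost without C4-2 replicate 1 (adjusted p = 0.0696, 0.0781 and 0.14) and without C4-2 replicate 2 (0.0699, 0.0775 and 0.169), and that of TPT1-AS1 also without either LNCaP library (0.0603 and 0.0681). These parent genes were chosen after their values were seen, and whether tags of the mRNA were placed on the copy was not tested.

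The label of an unannotated opposite strand holds for the deposited models, and less so for a later annotation. In GENCODE, 166 of the 411 genes with an exon model (40.4%) had an exon of another gene on the opposite strand, a further 69 had an opposite gene over an intron, and 100 had none within 5 kb. The opposite gene with the most exon overlap was a long non-coding RNA for 86 genes, a protein-coding gene for 61 and a pseudogene or other type for the rest. The same was measured in 1953 comparison genes, which also had at least 50 antisense tags in both libraries of a line and no opposite entry, but a ratio of at most 0.5. Among 1900 of these with an exon model, 32.2% had an opposite GENCODE exon and 20.9% had no opposite gene within 5 kb.

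Features of the genes themselves are set side by side in the same way. Non-coding accessions made up 20.5% of the genes that met the rule and 9.52% of the comparison genes, and single-exon genes 12.4% against 3.99%. The median exon content of G and C was 51.6% against 46.5%, and the median exon length 2887 against 3616 bases. A converging neighbour, transcribed toward the gene from within 5 kb of its end, was present for 28.7% against 25.7%. At least 1 reversed copy in a transcript of another gene (80 bases or more at 90% identity) was present for 53.5% against 42.4%, and at least 20 for 25.8% against 19.2%. Since a gene with few sense tags passes the ratio more readily, these shares are descriptions and carry no test.

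**Figure D3:**
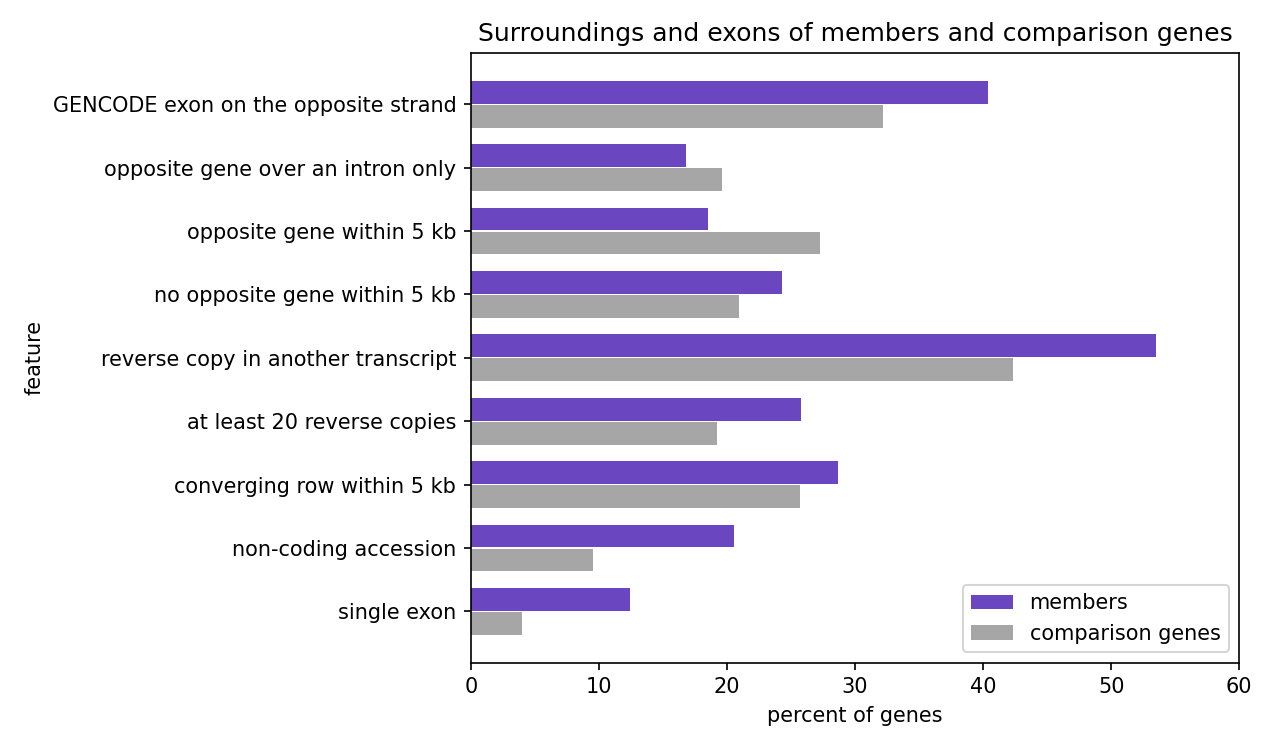
Percent of genes (x axis) with each feature (y axis) among genes that met the rule (purple) and comparison genes (grey), with the first 6 features counted over genes with an exon model. Opposite exons, reversed copies, non-coding accessions and single exons were more frequent among genes that met the rule, while an opposite gene only within 5 kb was less frequent (18.5% against 27.3%).

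Protein-coding neighbours lay opposite several genes, which are shown with the neighbour's sense tags. SLC18A2, the vesicular monoamine transporter of neurons, had 651, 660, 992 and 765 antisense tags and 1 sense tag in all. The opposite exon belongs to PDZD8, a lipid-transfer protein of the endoplasmic reticulum with 3372 to 7904 sense tags per library. SLC4A5, a bicarbonate transporter gene, had 1029, 1184, 2134 and 1616 antisense tags and 26 to 56 sense tags over the end of MTHFD2, a mitochondrial folate enzyme with 18638 to 27521 tags. ANKRD36BP1, an ankyrin-repeat pseudogene, had 740, 794, 3647 and 2490 antisense tags and 9 to 21 sense tags. The gene opposite it, SFT2D2, had 825, 984, 3621 and 2579 sense tags, close to the antisense tags in each library.

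The antisense strand and the neighbour did not always move alike between lines. At ANKRD36BP1 the antisense log2 fold change was 0.94 ± 0.130 (adjusted p = 0.00719), beside 0.73 for SFT2D2, and at FGD1 it was 0.93 ± 0.219 (adjusted p = 0.0265), beside 0.68 for TSR2. At PGAM2, the muscle phosphoglycerate mutase, antisense tags fell by 1.09 on the log2 scale (adjusted p = 0.00579), whereas its neighbour DBNL had 1.07. At PRSS12, a neuronal serine protease, they fell by 0.67 (adjusted p = 0.0242), whereas the non-coding SNHG8 had 0.23. NANOS1, an RNA-binding protein of germ cells, had 200, 208, 596 and 448 antisense tags beside 17091 to 85645 sense tags of EIF3A, a translation initiation factor. Its antisense change of 0.30 ± 0.128 did not pass the test (adjusted p = 0.114), and EIF3A had 0.97. With factors from antisense tags, PGAM2 had -0.50 and PRSS12 -0.08 and neither was called, while NANOS1 had 0.90 and was (adjusted p = 0.0602, 0.739 and 0.00962). The calls of FGD1 and PRSS12 were lost without LNCaP replicate 1 (0.0516 and 0.092) or either C4-2 library (0.0725 to 0.0781 and 0.0693 to 0.117). PGAM2, PRSS12, FGD1 and NANOS1 were chosen after their values were seen.

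Long non-coding RNAs named in GENCODE lay opposite other genes. GJD3, a gap junction protein gene, had 188, 278, 2351 and 1549 antisense tags over GJD3-AS1 and 6 to 62 sense tags. Both C4-2 libraries were above both LNCaP libraries, with 14.1 ± 1.11 (SD, n = 2) against 3.48 ± 0.560 antisense CPM, a log2 fold change of 2.02 ± 0.167 (edgeR adjusted p = 0.0026). HSD17B1, which makes estradiol from estrone, had 432, 533, 1830 and 1214 antisense tags over HSD17B1-AS1 and 197 to 336 sense tags. HEXIM1, an inhibitor of the elongation factor P-TEFb, met the rule in the libraries labelled LNCaP alone, with 564 and 630 antisense tags and a ratio of 0.506, over HEXIM2-AS1 and a gene without a name. TM4SF19, a tetraspanin-like membrane protein gene, had 55, 79, 113 and 72 antisense tags over TM4SF19-AS1 and no sense tag. MYOT, the muscle Z-disc protein myotilin, had 131 and 126 antisense tags over PKD2L2-DT in the pair labelled LNCaP and 0 in both others, with 0 sense tags throughout.

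CDR1, whose opposite strand is printed above, had 437 and 376 antisense tags in the pair labelled LNCaP and 9 and 6 in the pair labelled C4-2. Its sense tags numbered 4 in LNCaP replicate 1 and 0 in the other libraries. The entry met the rule in the libraries labelled LNCaP alone, so the gap between lines is part of its selection and carries no test. It was named after its values were seen.

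Genes with many reversed copies are described next, by the ratio that the rule also used. Of 106 genes whose exons had at least 20 reversed copies, 78 had a ratio between 0.5 and 2 and 2 had a ratio above 10, beside 226 and 111 of all 443. NRSN1, with 25 reversed copies, was among those above 10. Their median ratio was 1.18, and that of all 443, which include them, was 1.95. SHISA9, a regulator of AMPA receptors, had 2437, 2611, 2215 and 1803 antisense tags and 1956, 2058, 1523 and 1158 sense tags, with 157 reversed copies. ABCC9, a subunit of ATP-sensitive potassium channels, had 1705, 1940, 1428 and 1094 antisense tags and 1855, 2046, 1721 and 1437 sense tags, with 196 copies. In both genes both strands were lower in the libraries labelled C4-2: the antisense log2 fold change was -1.37 ± 0.134 for SHISA9 (adjusted p = 0.00341) and -1.58 ± 0.123 for ABCC9 (adjusted p = 0.00242), and the ratio did not pass the test in either (adjusted p = 0.348 and 0.354). With library totals from RPKM the antisense change of SHISA9 was -0.40 and not called (adjusted p = 0.149).

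LYZ, the lysozyme of macrophages and secretions, also had many reversed copies. It had 127, 146, 284 and 203 antisense tags and 99, 116, 130 and 103 sense tags, and its exons had 534 reversed copies. SLC9A4, a sodium-proton exchanger of the stomach, had 283, 296, 267 and 219 antisense tags with 136 copies. LOC646214, a non-coding gene of 1 exon named after its values were seen, had 2543, 2556, 2217 and 1746 antisense tags and 3522 to 4934 sense tags, with 165 reversed copies. The share of tags at such exons that were placed by chance among copies was not tested.

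Equal strands also occurred without copies. Of 72 genes with a ratio between 0.8 and 1.2, 29 had at least 20 reversed copies and 23 had none found. The 23 include genes without an exon model, such as LRRC37A4P, which were not searched for copies. At BHLHA9 the C4-2 libraries had 3341 and 930 antisense tags beside 3381 and 925 sense tags, and both LNCaP libraries had 0 on each strand. The C4-2 replicates thus differed on both strands together. No opposite gene lies within 5 kb of BHLHA9 in GENCODE. ZFAND2B, an adaptor of the proteasome pathway, had 32, 36, 2667 and 2043 antisense tags and 647, 857, 2726 and 1753 sense tags. The entry of its converging neighbour ABCB6, a mitochondrial transporter with 3395, 4296, 21173 and 15169 sense tags, ends 114 bases away.

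A few genes met the rule through 1 library. In the line where the rule was met, the replicates differed by more than 2-fold in antisense CPM at 12 genes and by more than 5-fold at 5, and the median gap was 1.15-fold. AP3M1, a subunit of the AP-3 vesicle coat, had 76, 28602, 83 and 69 antisense tags and 5656, 48828, 16862 and 12280 sense tags, so that both strands were high in LNCaP replicate 2. H3C14 and H3C15, near-identical histone H3 genes counted at 1 span, had 78, 13178, 112 and 109 antisense tags and 10248, 13963, 22173 and 16192 sense tags. B3GALT6, a galactosyltransferase of proteoglycan synthesis, had 216, 232, 433 and 19325 antisense tags and 2306, 2896, 11023 and 8023 sense tags. SCARF2, a scavenger receptor gene named after its values were seen, had 1135, 132, 5 and 7 antisense tags and 301, 502, 1997 and 3340 sense tags. Without the high library the antisense tags of AP3M1, H3C14, H3C15 and B3GALT6 fell far short of 0.5 of their sense tags. Those of SCARF2 were then also below 0.5 of its sense tags.

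**Figure D4:**
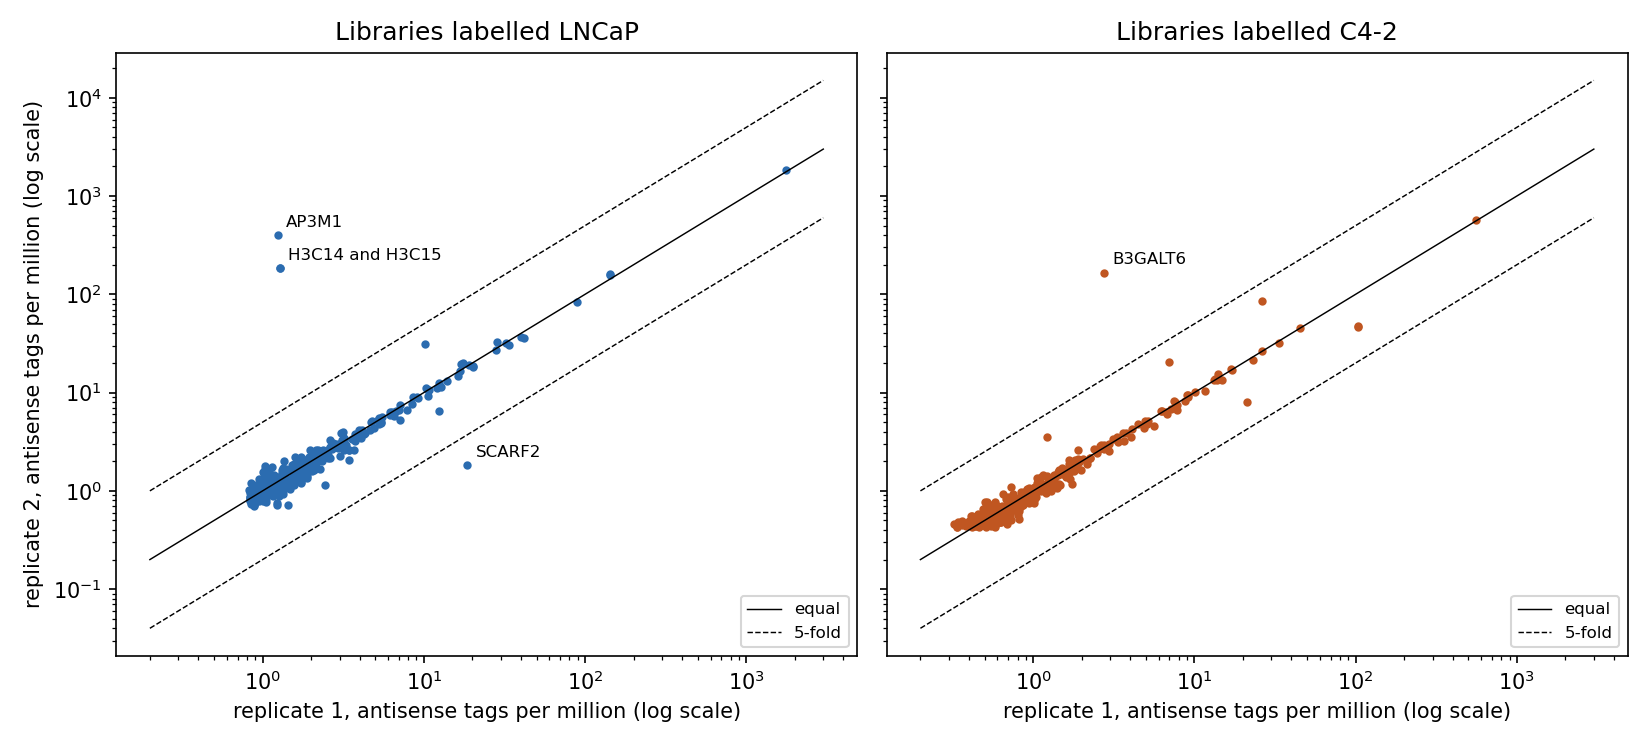
Antisense CPM in replicate 1 (x axis) against replicate 2 (y axis) of each line on log axes, for genes that met the rule in that line, with dashed lines at a 5-fold gap. Most points lie near the equal line, while 12 genes differ by more than 2-fold. Beyond the dashed lines lie AP3M1, H3C14 with H3C15 and SCARF2 in the pair labelled LNCaP and B3GALT6 in the pair labelled C4-2.

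Between lines, most called changes among the 212 genes that met the rule in both were toward lower tags in the libraries labelled C4-2 on both strands, on the scale set by sense tags. By edgeR, antisense tags were lower for 125 and higher for 20 of the 212. Over all 8791 genes tested, 29.5% were called lower and 6.89% higher, and the median log2 fold change was -0.59, against -0.77 for the 212. The floor of 50 tags is a higher CPM in the LNCaP libraries, which held fewer tags, than in the C4-2 libraries. Near that floor the rule thus favours genes with lower CPM in C4-2, and the 212 are not read against all genes. The antisense direction also rests on the scaling. With factors from antisense tags, 50 were lower and 40 higher, beside 909 lower and 1315 higher among all 8691 genes tested. With library totals recovered from RPKM, 25 were lower and 65 higher, beside 496 lower and 2133 higher among all 8767. Of the 169 tested on the sense strand, 105 were lower and 15 higher, where 37.8% were lower and 41.8% higher among 16018 genes. The sense direction also rests on the scaling: with library totals from RPKM, 18 of 168 were lower and 55 higher, and 1661 of all genes tested were lower and 11639 higher. That scaling moved the median sense change from 0.03 to 1.003 over all genes and from -0.73 to 0.24 over the genes that met the rule in both lines.

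The ratio of antisense to sense, which no scaling moves, had a median log2 change of -0.02 over the 212 genes. It was called higher for 23 of the 212 and lower for 19. Over all 8791 genes tested, 5.41% were called higher and 22.2% lower, but the rule required a ratio above 0.5 in both lines, so the 2 sets are not read against each other. Without any 1 library edgeR called no gene of the whole table on the ratio, with 2554 to 3193 genes at an unadjusted p under 0.05 and smallest adjusted p-values of 0.0859 to 0.0966. With all 4 libraries and DESeq2, 5 of the 212 were higher and 7 lower, beside 247 higher and 1070 lower among all 17272 genes in that fit.

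**Figure D5:**
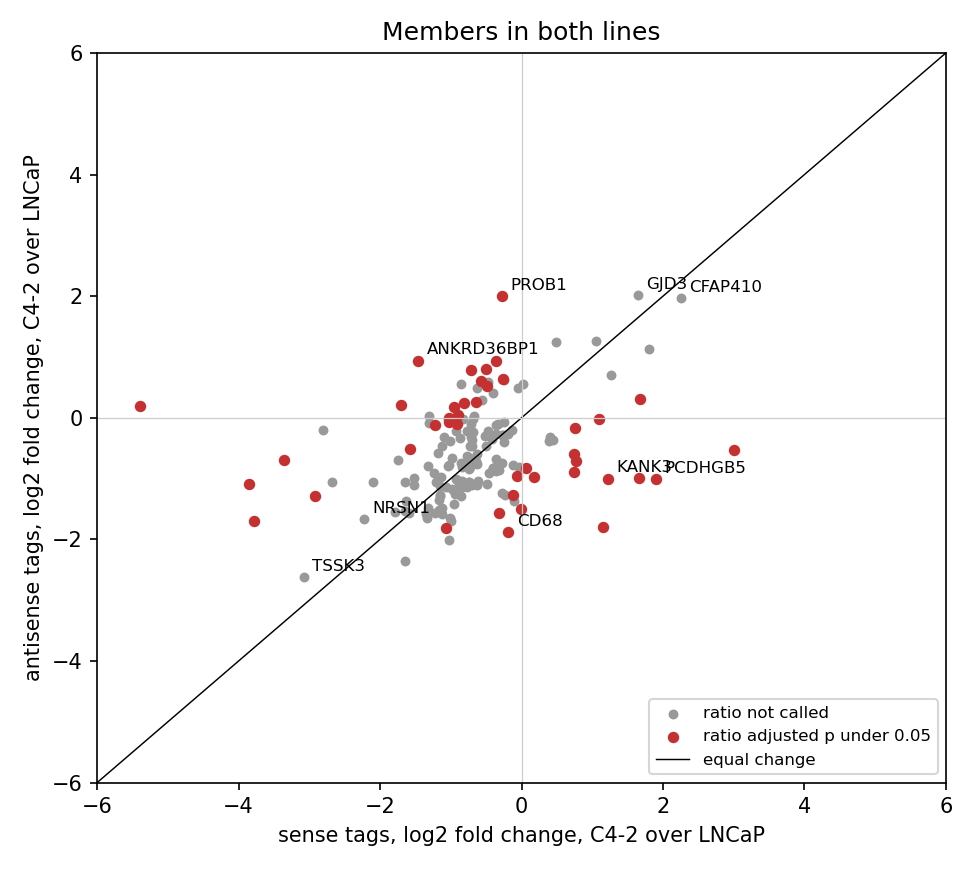
Log2 fold change of C4-2 over LNCaP for sense tags (x axis) and antisense tags (y axis), for the 169 of 212 genes that met the rule in both lines and were tested on both strands. Red points are genes whose antisense-to-sense ratio was called at an adjusted p under 0.05, and the diagonal marks equal change on both strands.

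Among genes that met the rule in both lines, were called and have a symbol other than a LOC name, the highest antisense changes were those of GLTPD2, GJD3, PROB1, CFAP410 and ANKRD19P. GLTPD2, a glycolipid transfer domain gene, had 62, 60, 637 and 415 antisense tags and 1 to 29 sense tags (log2 fold change 2.04 ± 0.159, adjusted p = 0.00242). PROB1, a proline-rich single-exon gene, had 96, 136, 1136 and 784 antisense tags and 24 to 74 sense tags. Its antisense change was 2.00 ± 0.150 (adjusted p = 0.00229), and its ratio also rose, by 2.25 ± 0.266 (adjusted p = 0.0104). CFAP410, a ciliary protein gene, had 121, 123, 1230 and 775 antisense tags and 130, 163, 1760 and 1143 sense tags. Both its strands rose, and its ratio did not pass the test (-0.28, adjusted p = 0.36).

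Within the same genes, TSSK3, KCNE2, SPDYE6, MASP2 and CD68 had the lowest antisense changes. TSSK3, a testis-specific kinase, had 238, 265, 92 and 76 antisense tags over the protein-coding FAM229A (log2 fold change -2.62 ± 0.136, adjusted p = 0.00179). KCNE2, a potassium channel subunit, had 287, 361, 136 and 105 antisense tags and no sense tag in any library (-2.46 ± 0.126, adjusted p = 0.00179). MASP2, a serine protease of the lectin pathway of complement, had 261, 275, 156 and 109 antisense tags over the end of TARDBP and 0 to 8 sense tags. CD68, a lysosomal glycoprotein of macrophages, had 376, 452, 282 and 186 antisense tags and 88, 131, 241 and 157 sense tags, and its ratio fell by 1.70 on the log2 scale (adjusted p = 0.0107). SPDYE6, a cell cycle regulator of a multicopy family, had 219, 242, 92 and 90 antisense tags. It shares sequence with near-identical copies, so its values are uncertain.

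At some genes the 2 strands parted. KANK3, a cytoskeletal adaptor gene whose end lies 187 bases from RPS28, had 121, 187, 195 and 123 antisense tags and 47, 85, 341 and 285 sense tags. Its antisense level fell from 2.29 ± 0.440 to 1.15 ± 0.125 CPM (SD, n = 2; edgeR adjusted p = 0.0143, but 0.168 with factors from antisense tags). Its sense log2 change was 1.22, and its ratio fell by 2.24 (adjusted p = 0.00966). At ANKRD36BP1 the ratio rose by 2.40 ± 0.411 (adjusted p = 0.0187). At PCDHGB5 it fell by 3.02 ± 0.431 (adjusted p = 0.0134) with 318, 363, 3144 and 2152 sense tags. The sense part of this ratio is not particular to PCDHGB5. Gamma protocadherin entries that share the last exons had a like rise, such as PCDHGA1 with 166, 144, 2709 and 1869 sense tags.

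The genes that met the rule in 1 line are described by their change on each strand. For the 98 of the libraries labelled LNCaP, the median log2 fold change of antisense tags was -1.69 and that of sense tags -0.15. For the 133 of the libraries labelled C4-2, antisense tags had a median of -0.18 and sense tags of -0.96. Over all genes tested the medians were -0.59 for antisense and 0.03 for sense tags. With library totals from RPKM the medians became -0.75 and 0.91 for the 98 genes, 0.78 and 0.0019 for the 133, and 0.42 and 1.003 over all genes. Antisense CPM was higher in C4-2 for 53 of the 133. These values follow from the rule and carry no test. THBS1, which encodes the matrix protein thrombospondin-1, was such a case: it had 407, 511, 297 and 200 antisense tags, but its sense tags numbered 10799, 12903, 81 and 62. It therefore met the rule in the libraries labelled C4-2 although its antisense tags were fewer there. The gene converging on it, FSIP1, had 978, 1064, 273 and 180 sense tags. THBS1 was named after its values were seen.

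The other genes named from the set of the libraries labelled C4-2 had different patterns, also given without a test. TNFSF13, the B-cell cytokine APRIL, had 233, 236, 883 and 538 antisense tags and 739, 978, 1557 and 1130 sense tags. Per 1000000 effective tags its antisense level was 3.29 to 3.82 CPM in the LNCaP libraries and 4.62 to 5.59 in the C4-2 libraries, and its sense level 12.1 to 13.6 and 9.71 to 9.85 CPM. TM6SF1, a membrane protein gene, had 21, 15, 183 and 169 antisense tags over the end of HDGFL3 and 0 to 4 sense tags. SRMS, a Src-related kinase, had 46, 57, 190 and 112 antisense tags and no sense tag. CAMK1D, a calcium-dependent kinase, had 19, 1952, 4153 and 3110 antisense tags, so that LNCaP replicate 1 alone kept it out of the LNCaP set. Its antisense level was 27.2 CPM in LNCaP replicate 2, above both C4-2 libraries (26.3 and 26.7 CPM). In the LNCaP set, SCAND1, a SCAN domain gene over CNBD2, had 1042, 1397, 816 and 887 antisense tags, with 1643, 2306, 8310 and 28377 sense tags, so that its ratio was 0.618 in the pair labelled LNCaP and 0.0464 in the pair labelled C4-2.

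Of the 443 genes, which are 1.82% of all genes, 55 belong to 1 of 12 gene families and symbol groups listed for a count. Solute carriers numbered 17 of 406 in the table, LINC genes 16 of 523 and zinc finger genes 9 of 538, beside 28, 10 and 74 among the comparison genes. No HOX or keratin gene met the rule. ZNF132 had 140, 169, 783 and 605 antisense tags, and ZNF446, over SLC27A5, had 37, 63, 576 and 376. ZNF566-AS1 had 192, 219, 204 and 122 over ZNF566. LINC00923 had 192, 201, 409 and 335 antisense tags and 116 to 241 sense tags. Of 3 genes named for coiled-coil domains, CCDC154 had 13, 10, 426 and 316 antisense tags, CCDC198 had 130, 148, 264 and 219, and CCDC39, which is needed to assemble motile cilia, had 128, 133, 81 and 72. PCDHB9, a beta protocadherin, had 69, 77, 102 and 110.

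Genes near the limits show how finely the rule cuts. In the libraries labelled LNCaP, APOL1, a lipid-binding protein of serum, and CARNS1, the carnosine synthase, were just inside the ratio, at 0.504 each, and DOCK3 and CEACAM22P just outside, at 0.490 and 0.487. CFAP276 and ENO4 had exactly 50 antisense tags in their lower library, and SRL and VIPR2 had 49. In the libraries labelled C4-2, DRC3 and KANK3 were just inside at 0.502 and 0.508, and WDR24 and REM2 just outside at 0.498 and 0.493. AATBC and CARD6 had 50 tags in the lower library, and ANKS4B and ATP4B had 49.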

How the data were processed

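Alignment used TopHat2 2.0.6 with Bowtie against hg19, per the submitters' processing notes. For 41351 RefSeq entries the authors deposited tag counts and RPKM values by strand, as named per the file headers. How tags were counted is not given in the sources used here. Antisense tags are those on the strand opposite to the entry, and counts were taken to cover exons. The rule and all lists were chosen with earlier results of these data known.

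edgeR 4.0.16 (quasi-likelihood test, R 4.3.3) compared C4-2 with LNCaP for antisense tags, sense tags and their ratio (a strand by line term). CPM and fits used effective library sizes by TMM on sense tags, and p-values were adjusted by Benjamini-Hochberg over all genes tested, with a threshold of 0.05. The deposited RPKM values were used only to recover library totals. The script was tested on simulated data. Alternatives included DESeq2 1.42.0. The replicate numbers did not pair the samples (correlation of deviations 0.052 for antisense and -0.027 for sense tags).

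Because the RefSeq gene table used for names carries no strand, opposite genes were taken from GENCODE release 44 lifted to hg19. For single-exon entries, 55 of the 443, the exon model was the deposited span itself. For the others it was a GENCODE transcript with at least 90% span overlap and at most 5% difference in exon length. Where none was found, an approximate transcript was taken, with limits of 50% for both. AP3M1, ANKRD19P, TAPT1-AS1 and CAMK1D have such approximate models. Of the 443 genes, 411 had a model. Reversed copies were found with blastn 2.17.0 (at least 80 bases, 90% identity). For 38 genes no symbol was matched. Genes were named by a rule: the highest antisense level, the highest and lowest ratio, the largest called changes, the most antisense tags in 1 line or over a named opposite gene, those nearest the thresholds, the top of named families, and BHLHA9, LYZ and HEXIM1. Others are said to be chosen after their values were seen.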

Additional observations from a re-analysis of the deposited data

How the results depend on the processing

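The number of genes that met the rule was 443. It was 862 with a minimum of 20 antisense tags, 208 with 100, and 286 with no opposite entry within 5 kb. It stayed within 1.5 times with ratios of 0.25 and 1 and ranged from 455 to 540 when the rule was applied without 1 replicate. The 3197 genes called on antisense tags became 1463 with DESeq2 (559 lower and 904 higher, and 33 and 29 of the 212 genes of both lines), and 1606 to 2229 without 1 replicate, and those 212 then gave 79 to 107 lower and 8 to 14 higher calls. Of those called, 606 of 3197 were higher in C4-2, against 1315 of 2224 with factors from antisense tags and 2133 of 2629 with RPKM totals, which moved the median log2 fold change from -0.59 to 0.04 and 0.42. Sense calls numbered 12747 and ranged from 11775 to 12784 without 1 replicate. The 2426 ratio calls became 307 with no filter, 1317 with DESeq2 and 0 without any 1 replicate. With the replicate block they became 1428, and antisense calls 2322. The numbers do not pair the samples. With RPKM totals the antisense change of TAPT1-AS1 turned to 0.12, LINC00923 to 0.85, SLC4A5 to 0.68 (0.29 with DESeq2), SLC18A2 to 0.34, PRSS12 to 0.30, CCDC198 to 0.72 and LYZ to 0.75. An opposite GENCODE gene overlapped 56.9% of the spans and lay within 5 kb of 75.7%.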
